A study of Mus musculus with 6 samples.

Results

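Toll-like receptors are membrane proteins that recognize microbial products and molecules released by injured tissue, and Myd88 is the adaptor that most of them use to start signaling. The genes described here are Tlr1, Tlr2, Tlr3, Tlr4, Tlr5, Tlr6, Tlr7, Tlr8 and Tlr9 together with Myd88. They were chosen by name, and all 10 were found among the 46983 genes measured. RNA-seq had been run on aortic valves of wild type C57BL/6J mice, either pups at postnatal day 2 (PND2) or adults 4 months old, with 3 libraries per age, to ask how gene expression differs between growing and adult valves. Each library held the pooled valves of 5 to 6 mice, so mice cannot be told apart within a library, and the sex of the pooled mice is not given. Separate pools are described as biological replicates, and p-values measure the spread between these pools. Levels are RPKM, which scales reads by the length of a gene's exons and by the total of its library and so lets levels be compared between genes. Library totals, inferred from the exon values, ran from 23810507 to 38994657.

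Receptors at the cell surface (Tlr1, Tlr2, Tlr4, Tlr5 and Tlr6) sense lipoproteins, lipopolysaccharide or flagellin, and receptors in endosomes (Tlr3, Tlr7, Tlr8 and Tlr9) sense nucleic acids. Tlr3 signals through the adaptor Ticam1, Tlr4 through both adaptors, and the others through Myd88, which recruits Irak kinases and leads to NF-kB and interferon regulatory factors. In heart valves, Tlr2 and Tlr4 are known from interstitial cells as well as from resident macrophages.

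Tlr1 and Tlr6, which each pair with Tlr2 to sense lipoproteins, lie next to each other on chromosome 5 with 18467 bases between them, and their coding sequences were 73.3% identical. Reads were 50 nucleotides long, and 454 windows of 50 bases stood unchanged in both coding sequences (19.4% of the windows of Tlr1 and 19.2% of those of Tlr6). The other 35 pairs of the 9 receptors were 44.9 to 54.2% identical and shared no such window. Reads were paired and were trimmed before alignment, and a mate outside a shared window can place a pair. The shares of windows therefore do not measure how many read pairs were ambiguous. The longest stretch common to Tlr1 (chr5:64925537-64925765, minus strand, mm10) and Tlr6 (chr5:64953828-64954056, minus strand) is in the coding exon of each gene. It is shown because a read wholly inside it matches both genes and cannot be assigned by its own sequence.
Tlr1 and Tlr6 shared stretch: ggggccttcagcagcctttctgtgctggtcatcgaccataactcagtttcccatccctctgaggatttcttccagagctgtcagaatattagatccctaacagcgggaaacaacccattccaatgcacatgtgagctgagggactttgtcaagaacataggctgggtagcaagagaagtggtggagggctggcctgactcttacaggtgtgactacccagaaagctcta
Levels of Tlr1 and Tlr6 are therefore uncertain to the extent that their reads were split or counted at both genes.

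Among the members, 8 had a promoter in the set of RefSeq promoter sequences used here (GRCm38.p6), and Tlr4 and Tlr7 were missing from that set. The 250 bases before each start were searched on both strands for 4 motifs of factors that act in innate immune cells. The 8 members had 10 promoters, and a member was counted if any of its promoters matched, while shares of all promoters count each promoter singly. An NF-kB site, read as GGG followed by any 3 bases and TTCC, stood before Tlr2, Tlr3 and Tlr6 and in 4.65% of all 32851 promoters. An interferon regulatory factor element, read as GAAA, any 2 bases and GAAA, stood before Myd88 and Tlr6 and in 2.98% of promoters. In Tlr6 this element and the NF-kB site lie in different promoters of the gene. The PU.1 core GAGGAAG (10.6% of promoters) stood before Tlr1 and Tlr9, and the AP-1 letters TGANTCA (6.75%) before Tlr9. Matches before the called genes Tlr2, Tlr3 and Myd88 are shown with the motif in capitals. They lie on the minus strand at chr3:83841762-83841791, chr8:45410572-45410601 and chr9:119340039-119340068.
Tlr2: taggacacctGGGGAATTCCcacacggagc
Tlr3: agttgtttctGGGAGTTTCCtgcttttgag
Myd88: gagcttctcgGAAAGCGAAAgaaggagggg
The Tlr3 stretch lies inside the first exon of the annotation used for the levels, which starts further upstream. A match to these letters is a description of the sequence, and binding was not measured.

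At 4 months Tlr2, Tlr3, Tlr4, Tlr8 and Myd88 were higher than at PND2, by 0.44 to 1.38 on the log2 scale, and no member was called lower. These 5 of 10 members passed the test, which was limma on log2(RPKM + 0.1) with p-values adjusted over 25903 genes and a call at an adjusted p under 0.05. Of all genes tested, 14.7% were called higher and 21.1% lower. The median log2 fold change was 0.71 over the members and -0.14 over all genes. When library medians were equalized the median of all genes was -0.02, and the share of called genes that were higher moved from 41.1% to 52.7%. The count of 0 members lower came with 2 members lower at an unadjusted p under 0.05 (Tlr5 and Tlr6), and limma with voom weights on recovered reads called 6 higher, Tlr7 in addition, and 1 lower (Tlr5), against 15.8% and 21.6% of all genes. All 3 libraries of 4 months stood above all 3 of PND2 for 6 members, against 20.0% of all genes, and below them for 2 members, against 29.9%. Since the tissue was measured in bulk, a change in the number of cells of a type and a change in RNA per cell cannot be told apart.

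**Figure D1:**
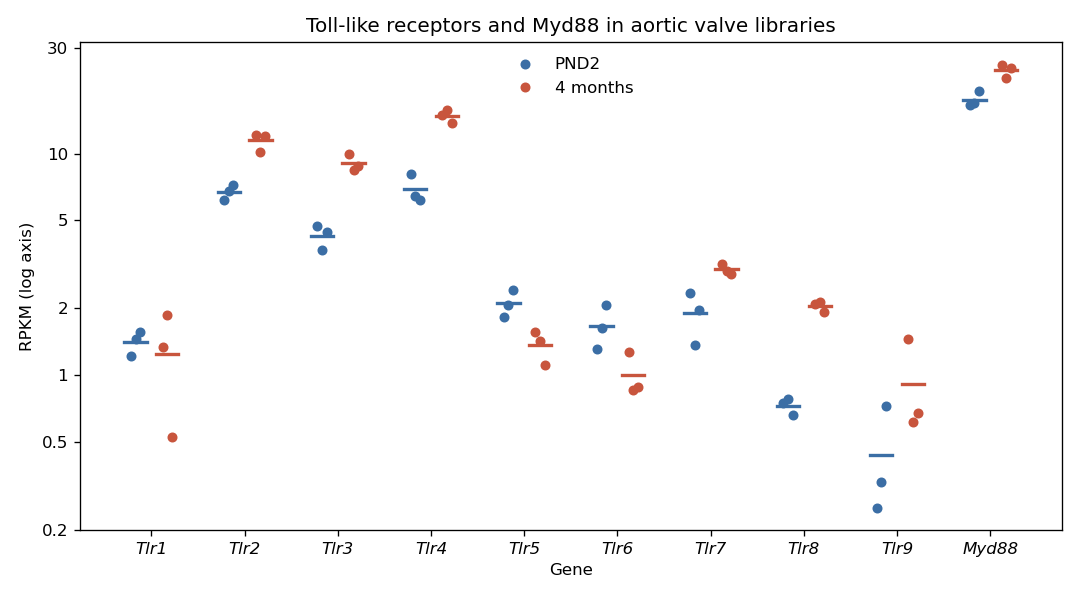
RPKM (log axis) of the 9 receptors and Myd88 in each library, with points for the 3 libraries of PND2 and of 4 months and a line at the mean of each age. The points of the ages do not overlap for 8 genes and overlap for Tlr1 and Tlr9.

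Tlr4, the receptor for lipopolysaccharide, was the receptor with the highest mean level at both ages. Its level was 8.12, 6.40 and 6.16 RPKM in the PND2 libraries and 15.0, 15.7 and 13.7 RPKM at 4 months. All 3 libraries of 4 months were above the highest PND2 library, and the log2 fold change was 1.10 (SE 0.14, limma adjusted p = 0.00145). The gene (chr4:66827584-66930284, plus strand) has its long last coding exon at chr4:66839229-66842800, where the mean was 9.01 RPKM at PND2 and 20.3 RPKM at 4 months, 2.25 times as high (limma adjusted p = 0.00820 over all exons). Exons annotated far downstream, at chr4:66924366-66924488 and chr4:66929018-66930284, stood between 0 and 1.88 RPKM in every library and were not called (log2 fold changes -2.61 and -0.30, limma adjusted p = 0.139 and 0.736). Those distal exons count toward the exonic length of 5556 bases, so the level of the whole gene is below that of its coding exons.

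Tlr2, which recognizes lipoproteins in a pair with Tlr1 or Tlr6, was the receptor with the next highest mean. It was listed at 6.20, 6.81 and 7.22 RPKM at PND2 and at 12.2, 10.2 and 12.1 RPKM at 4 months, without overlap (log2 fold change 0.76, SE 0.13, limma adjusted p = 0.00475). Most of its sequence is in the coding exon at chr3:83836272-83838789, which moved by 0.76 on the log2 scale but fell short of a call among exons (limma adjusted p = 0.0503). The exon farthest upstream, at chr3:83841520-83841767, had 1.03 to 1.81 RPKM across the libraries of both ages (log2 fold change 0.03, limma adjusted p = 0.974).

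Neither partner of Tlr2 was called. Tlr6 (coding exon in chr5:64952031-64955593) was 1.31, 1.64 and 2.06 RPKM at PND2 and 1.27, 0.856 and 0.881 RPKM at 4 months (log2 fold change -0.68, SE 0.28, limma adjusted p = 0.100). These ranges do not overlap, but the difference was not called. Tlr1 was 1.22, 1.45 and 1.56 RPKM at PND2 and 1.34, 1.86 and 0.527 RPKM at 4 months, so that its libraries at 4 months lay on either side of PND2 (log2 fold change -0.32, SE 0.43, limma adjusted p = 0.607). Without the third library of 4 months, which rests on 51 Tlr1 reads, the value turned to 0.16. In the second library of 4 months an upstream exon of Tlr1 (chr5:64932801-64933100) was at 5.46 RPKM against 0.114 to 0.342 RPKM in the other 5 libraries. There the coding exon of Tlr1 (in chr5:64924679-64927298) was at 1.62 RPKM, within the range of 0.633 to 1.92 RPKM elsewhere. At 4 months this coding exon had 1.60, 1.62 and 0.633 RPKM, never above the highest PND2 library (log2 fold change -0.45, limma adjusted p = 0.574). The ratio of Tlr2 to Tlr6 went from 4.14 ± 0.622 (SD, n = 3) to 11.7 ± 2.07, with no overlap between ages and p = 0.1 in a 2-sided exact permutation test, the smallest that 3 against 3 libraries allow. The ratio of Tlr2 to Tlr1 went from 4.80 ± 0.252 to 12.5 ± 9.21 (SD, n = 3, exact permutation p = 0.1), and at 4 months it ran from 5.48 to 22.9. Both ratios, like the other 3 ratios tested, were chosen after the values had been seen, and p-values adjusted over the 5 ratios were 0.167 for these.

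Tlr5, the receptor for flagellin, had 1.82, 2.07 and 2.43 RPKM at PND2 and 1.57, 1.43 and 1.11 RPKM at 4 months. Every library of 4 months was below every PND2 library, yet the log2 fold change of -0.59 (SE 0.24) was not called (limma adjusted p = 0.0933). Its coding exon at chr1:182972177-182975994 gave -0.60 on the same scale (limma adjusted p = 0.330). Between 154 and 340 reads stood behind each value.

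Tlr3, which binds double-stranded RNA in endosomes, was listed at 4.71, 3.65 and 4.44 RPKM at PND2 and at 9.99, 8.41 and 8.81 RPKM at 4 months. The ages did not overlap, and the log2 fold change was 1.07 (SE 0.16, limma adjusted p = 0.00222). Its coding exons at chr8:45395665-45397141 and chr8:45397370-45399222 rose by 1.31 and 0.99 (limma adjusted p = 0.0170 and 0.0342).

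Tlr7 and Tlr8, which sense single-stranded RNA, are neighbours on chromosome X with 40599 bases between them. Tlr8 had 0.744, 0.777 and 0.658 RPKM at PND2 and 2.08, 2.13 and 1.93 RPKM at 4 months, with no overlap (log2 fold change 1.38, SE 0.22, limma adjusted p = 0.00337). This was the highest log2 fold change of the members, but with 1 RPKM added before taking logs it was 0.82, below those of Tlr4 (1.01) and Tlr3 (0.94). Tlr7 (coding mainly in chrX:167304929-167308485) had 2.36, 1.36 and 1.97 RPKM at PND2 and 3.19, 2.96 and 2.85 RPKM at 4 months, and its log2 fold change of 0.67 (SE 0.24) was not called (limma adjusted p = 0.0689). The ranges of Tlr7 did not overlap, and the gene was called with voom (limma adjusted p = 0.0349), with equalized medians (0.0437) and without the first PND2 library (0.0394). The ratio of Tlr8 to Tlr7 was 0.406 ± 0.141 at PND2 and 0.683 ± 0.0335 at 4 months (SD, n = 3, exact permutation p = 0.1). Between 69 and 279 reads per library stood behind Tlr8, and its coding exon at chrX:167242696-167245849 rose by 1.44 (limma adjusted p = 0.0495).

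Across all members, 73 of 85 distinct annotated exons could be tested and 9 were called higher, all in Tlr3, Tlr4 and Tlr8, where several annotated exons overlap each other. Of all exons tested, 8.42% were called higher and 12.7% lower by limma. No exon of a member was called lower by limma, and 1 was lower at an unadjusted p under 0.05. The count of 9 was 1 without the first library of 4 months, 5 without the second, 4 without the third and 4 without the third PND2 library. Over all exons these fits called 14047 of 275519, 16564 of 276845, 13952 of 276922 and 17216 of 275705 higher, in the same order. The fit with all libraries called 23769 of 282267.

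Tlr9, which senses DNA with unmethylated CpG, was the lowest member and is coded mainly in the exon at chr9:106223515-106226883. Its values were 0.251, 0.330 and 0.727 RPKM at PND2 and 1.45, 0.616 and 0.675 RPKM at 4 months, with 34 to 188 reads. The ages overlapped, since the third PND2 library was above the second and the third of 4 months, and the log2 fold change of 0.93 (SE 0.46) was not called (limma adjusted p = 0.161).

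**Figure D2:**
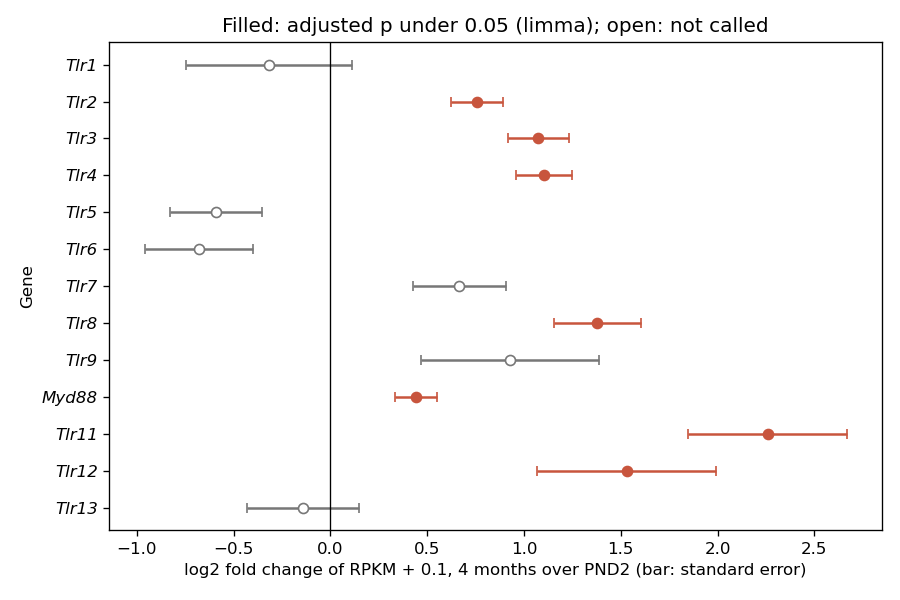
Log2 fold change (4 months over PND2, RPKM + 0.1) of the members and of Tlr11, Tlr12 and Tlr13, with bars of 1 standard error over 3 libraries per age. Filled points passed limma's adjusted p under 0.05, and Tlr8 is the farthest right of the 5 filled members.

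Summed over Tlr1 to Tlr9, the level was 26.1 ± 1.46 RPKM at PND2 and 45.0 ± 2.83 RPKM at 4 months (SD, n = 3), 1.72 times as high. Tlr4 made up 26.4% of this sum at PND2 and 33.0% at 4 months, and Tlr3 16.3% and 20.2%. The share of Tlr2 was 25.8% and 25.6%. Tlr5 went from 8.05% to 3.03% and Tlr6 from 6.38% to 2.22%. At PND2 the order of levels was Tlr4, Tlr2, Tlr3, Tlr5, Tlr7, Tlr6, Tlr1, Tlr8 and Tlr9. The library ranges of Tlr4 and Tlr2 overlapped there, as did those of each neighbour from Tlr5 to Tlr1 and those of Tlr8 and Tlr9. At 4 months the order was Tlr4, Tlr2, Tlr3, Tlr7, Tlr8, Tlr5, Tlr1, Tlr6 and Tlr9, and neighbours overlapped from Tlr5 downwards. Tlr8 thus stood below Tlr5, Tlr6 and Tlr1 in every PND2 library and above them in every library of 4 months.

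Myd88 was above every receptor in each library. Its level was 16.6, 16.9 and 19.2 RPKM at PND2 and 25.3, 22.0 and 24.3 RPKM at 4 months, without overlap. The log2 fold change of 0.44 (SE 0.11) was called (limma adjusted p = 0.0173) and was the smallest of the 5 rises. Without the second PND2 library limma's adjusted p was 0.0578, and without the first or the third library of 4 months it was 0.0567 and 0.0608.

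The first exon of Myd88 (chr9:119339632-119340041, minus strand) lies across an exon of Acaa1a on the plus strand. Libraries came from a stranded kit, but whether the counting used strand is not given in the sources used here. Exons 2 to 6 do not overlap another gene, and their log2 fold changes were 0.42, 0.29, 0.48, 0.48 and 0.46, none of them called (limma adjusted p of 0.0837 to 0.315). Exon 2 (chr9:119338576-119338710, minus strand) is shown because the short form of the protein, which is known to block signaling, leaves it out. Its 135 bases keep the reading frame when skipped.
Myd88 exon 2: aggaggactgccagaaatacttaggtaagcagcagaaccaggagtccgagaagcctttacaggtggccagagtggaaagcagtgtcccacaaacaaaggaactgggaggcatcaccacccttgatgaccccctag
The level of exon 2 over the mean of the other 5 exons was 0.865, 1.03 and 0.977 at PND2 and 0.987, 1.12 and 0.767 at 4 months. The ages overlapped and differed by -0.01 on the log2 scale (exact permutation p = 1). Exon values cannot count the short form itself, since reads across splice junctions are not in the tables.

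**Figure D3:**
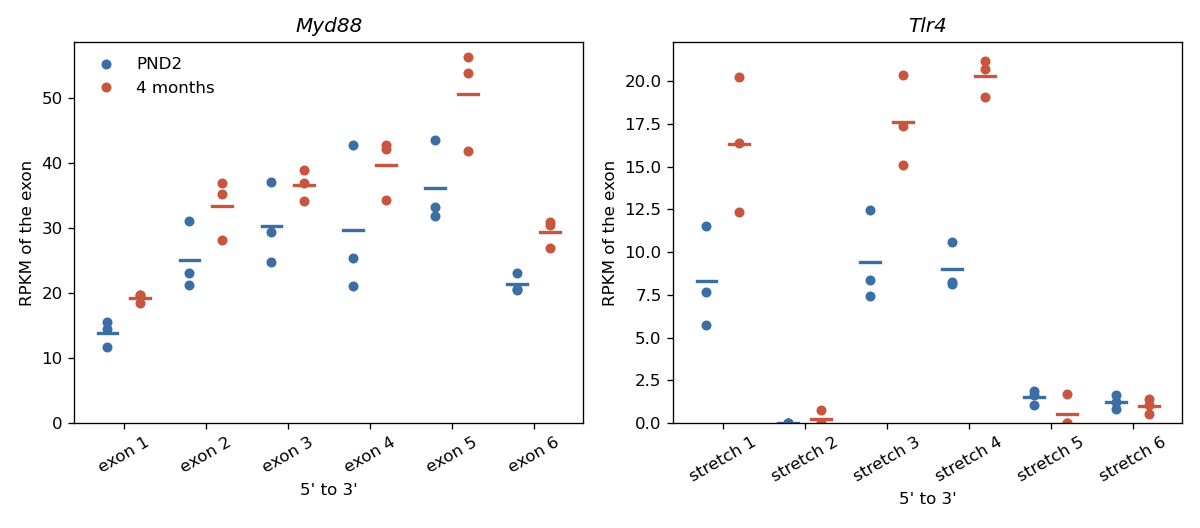
RPKM of the exons of Myd88 (left) and of the separate exonic stretches of Tlr4 (right), ordered 5′ to 3′, with points for libraries and lines for the mean of each age. Exon 2 of Myd88 sits among its neighbours at both ages, and the last 2 stretches of Tlr4 stay below 2 RPKM.

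Most macrophage markers tested were called higher at 4 months. So were 5 members, while Tlr1, Tlr5, Tlr6, Tlr7 and Tlr9 were not called. Of 13 markers listed, 12 were tested. At 4 months 8 were higher (among them Csf1r, Adgre1, Cd68, Mertk and the C1q genes), and Cx3cr1 was lower. Of all genes tested, 14.7% were called higher and 21.1% lower. The summed level was 307 to 434 RPKM at PND2 and 572 to 726 RPKM at 4 months, and of the list only Marco, which was not tested, was at 0 in all 3 libraries of an age (4 months). The geometric mean of the 12 markers was 0.79 higher on the log2 scale at 4 months. Relative to that mean in the same library, Tlr3, Tlr4 and Tlr8 were higher in each library of 4 months than in any of PND2 (log2 differences of 0.29, 0.32 and 0.59, exact permutation p = 0.1 each). Tlr5, Tlr6 and Myd88 were lower in each (-1.38, -1.47 and -0.34, exact permutation p = 0.1 each). Tlr2 differed by -0.03 (exact permutation p = 1), Tlr7 by -0.12 (0.5), Tlr9 by 0.14 (1) and Tlr1 by -1.10 (0.2). Adjusted over the 10 members, the lowest of these p-values was 0.167. Because the marker mean itself was 0.79 higher, a gene with an unchanged level is lower by 0.79 on this ratio. A gene that rose by less than the markers, such as Myd88 (0.44), is lower on it too. The share of all genes higher or lower on this ratio was not computed. Relative to the summed level of the markers in place of their geometric mean, Tlr4 and Myd88 overlapped between the ages, and 2 members were higher (Tlr3 and Tlr8) and 2 lower (Tlr5 and Tlr6) in each library of 4 months.

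**Figure D4:**
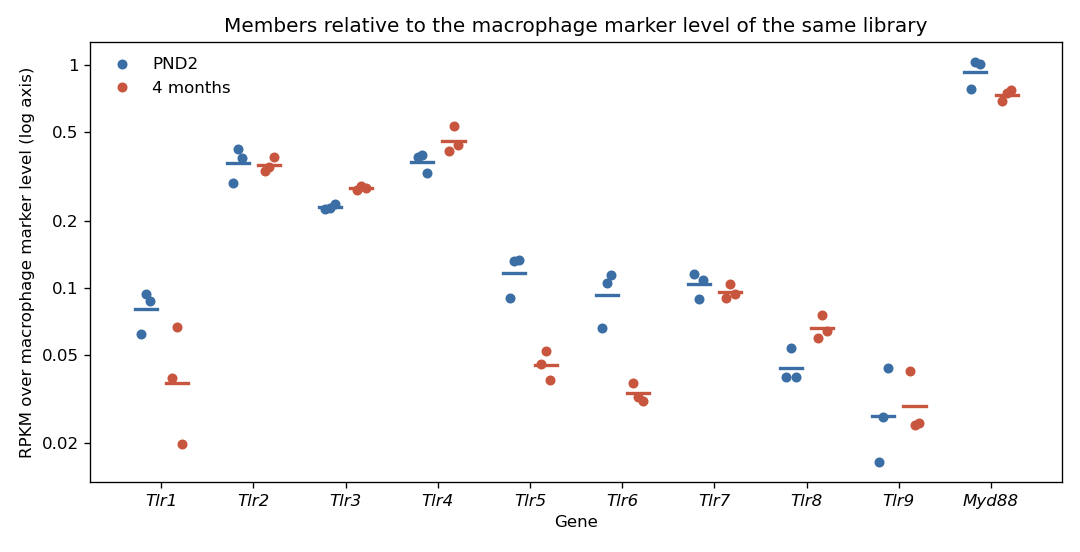
RPKM of each member divided by the geometric mean of 12 macrophage markers in the same library (log axis), with points for libraries and lines for the geometric mean of each age. Tlr3, Tlr4 and Tlr8 lie higher at 4 months, Tlr5, Tlr6 and Myd88 lower, and Tlr2 overlaps. With summed markers as the divisor Tlr4 and Myd88 overlap too. The marker mean itself was 0.79 higher on the log2 scale at 4 months.

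Other cell types also differed between the ages, and their part in the results was not tested. The counts of called markers below stand beside 14.7% called higher and 21.1% lower over all genes. Summed dendritic cell markers were 5.65 to 6.72 RPKM at PND2 and 10.6 to 12.8 RPKM at 4 months (3 of 6 tested higher), and T cell markers were 3.37 to 3.85 and 6.57 to 7.58 RPKM (3 of 7 higher). Neutrophil markers went the other way, from 6.25 to 7.79 RPKM down to 1.45 to 1.85 RPKM (5 of 7 tested lower), as did endothelial markers, from 459 to 620 down to 274 to 280 RPKM (8 of 8 lower). Ngp and Mmp8 among the neutrophil markers were at 0 in all libraries of 4 months. Ly6g, the T cell marker Cd3e and the adipocyte markers Cidec and Lep were at 0 in all of PND2. Those of these genes that were tested reached the minimum level through the other age, so any call of theirs is no support for a difference. B cell markers had no call (3 tested, with 0.496 to 4.46 RPKM at 4 months). Adipocyte markers were 69.2 to 152 RPKM at PND2 and 335 to 1422 RPKM at 4 months, where the second library was the highest (6 of 7 higher). Valve interstitial cell markers were abundant at both ages. They summed to 5588 to 6081 RPKM at PND2 and 6866 to 8639 RPKM at 4 months, without overlap. Of 7, 1 was called higher (Dcn) and 3 lower, with a median log2 fold change of -0.34 over the list. The mean of the sum went from 5855 to 7870 RPKM, and Dcn, with values given below, rose by more than that. The other markers together therefore did not rise. Cardiomyocyte markers were abundant as well, at 8091 to 9137 RPKM at PND2 and 3666 to 5761 RPKM at 4 months (3 of 7 lower), although the valves had been dissected with little myocardium.

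In mice the receptor family has further members, Tlr11, Tlr12 and Tlr13. Tlr11, which recognizes profilin of protozoa with Tlr12, was listed at 0, 0 and 0.0418 RPKM at PND2 and at 0.671, 0.423 and 0.285 RPKM at 4 months (log2 fold change 2.26, limma adjusted p = 0.00542). Tlr12 had at most 0.108 RPKM at PND2 and 0.565, 0.291 and 0.217 RPKM at 4 months (1.53, limma adjusted p = 0.0374, and over 0.05 without any 1 of the 6 libraries). Both genes reached the minimum level for a test through the libraries of 4 months, and their fold changes depend on the value added before taking logs, being 0.52 and 0.35 with 1 RPKM added, so their calls are no support for a rise. Tlr13, a sensor of bacterial ribosomal RNA, overlapped between ages at 1.40 to 2.66 RPKM (-0.14, limma adjusted p = 0.737).

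Genes that work with the receptors were taken from 9 lists of 92 genes, which include Tlr11, Tlr12 and Tlr13. Of the 89 tested, 35 were higher at 4 months (39.3%, against 14.7% of all genes), 11 were lower (12.4%, against 21.1%) and 43 were not called, with a median log2 fold change of 0.32. The same shares of all genes stand beside the count of each list. Without Tlr11 and Tlr12, 33 of 87 were higher. The 11 lower genes include S100a9, which reached the minimum level for a test through the libraries of PND2. The defense response set that the study drew from these same libraries holds Tlr3, Tlr4, Tlr8 and several of these genes, so they are not independent of it.

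**Figure D5:**
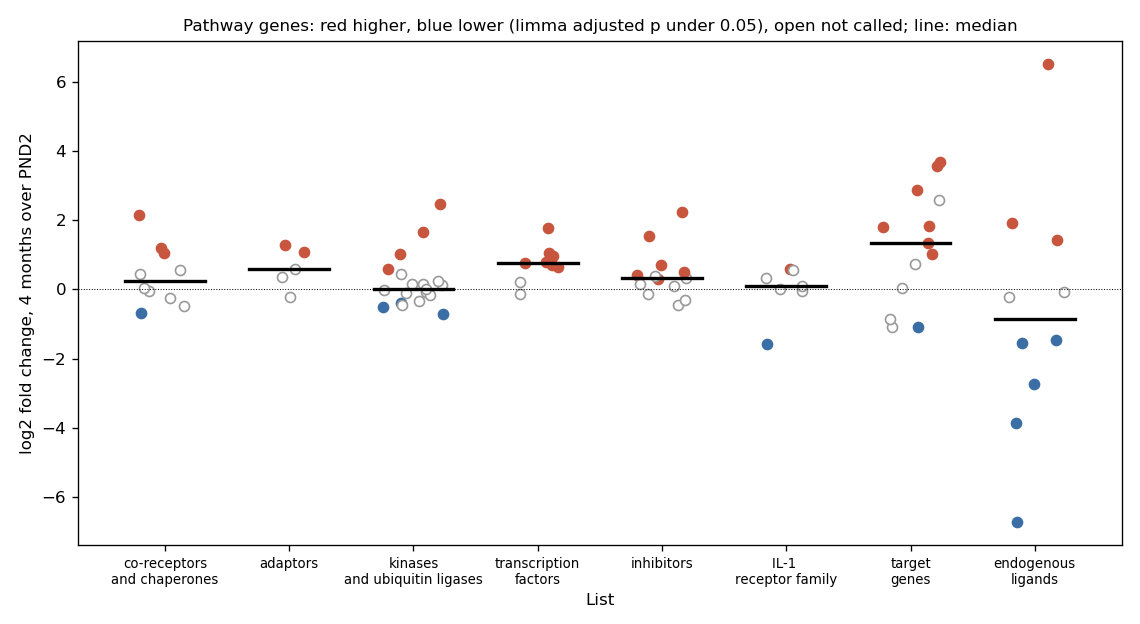
Log2 fold change (4 months over PND2) of the genes tested in 8 lists of the Toll-like receptor pathway, 1 point per gene, with a line at the list's median. Red points were called higher and blue points lower, and the transcription factor list has 7 of 9 called higher and none lower.

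Proteins that present ligands or carry receptors to their place gave 3 higher and 1 lower of 10. Cd14, which hands lipopolysaccharide to Tlr4, was 3.49, 2.17 and 3.39 RPKM at PND2 and 13.9, 11.9 and 14.6 RPKM at 4 months, 4.46 times as high (limma adjusted p = 4.45e-04). Its partner in that step, Ly96, the subunit that binds lipopolysaccharide on Tlr4, stood at 4.75 to 7.26 RPKM and overlapped between ages (log2 fold change -0.06, limma adjusted p = 0.831). Lbp, which delivers lipopolysaccharide to Cd14, was not called at -0.49 (limma adjusted p = 0.0592). Unc93b1, the chaperone that brings the endosomal receptors to their compartment, was higher by 1.04 (limma adjusted p = 0.00280). Ly86, which pairs with the receptor homolog Cd180, was higher by 1.18 (limma adjusted p = 0.00404). Lrrc59 was lower by -0.68 (limma adjusted p = 0.00882).

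Among the 5 other adaptors, Ticam2, which links Tlr4 to Ticam1, rose by 1.27 (limma adjusted p = 0.0194) and Pik3ap1 by 1.08 (0.00378). Ticam1, Tirap and Sarm1 were not called. Of 19 kinases and ubiquitin ligases, 4 were higher and 3 lower. The higher ones were Irak2 (1.01, limma adjusted p = 0.00690) and the Pellino ligases Peli1, Peli2 and Peli3 (0.60, 1.67 and 2.46), and the lower ones were Map3k7, Tab1 and Tab2 (-0.52, -0.71 and -0.40), subunits of the TAK1 kinase complex. Irak1, Irak4 and Traf6, the core of the signaling chain after Myd88, had log2 fold changes of 0.11, 0.17 and -0.07 and were not called.

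The list of transcription factors had 7 of 9 higher and none lower by limma. Its called members were the NF-kB subunits Nfkb2, Rel, Rela and Relb (0.69 to 0.97) and the interferon regulatory factors Irf5, Irf7 and Irf8 (0.63, 1.77 and 1.06), and Nfkb1 and Irf3 were not called. Inhibitors of the pathway were higher in 6 of 13. Irak3, a kinase-dead member of its family that holds back signaling from Myd88, went from 1.21, 1.21 and 1.66 RPKM to 7.95, 6.08 and 6.28 RPKM (2.24, SE 0.21, limma adjusted p = 3.90e-04). Zc3h12a, a nuclease that degrades cytokine mRNA, rose by 1.55 (limma adjusted p = 0.00129), and Cyld, Nfkbia, Nfkbib and Tollip by 0.30 to 0.71. Tnfaip3, Socs1 and Sigirr were not called.

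Receptors of the IL-1 family share Myd88 with the Toll-like receptors, and 1 of 7 was higher and 1 lower. Il1r1 rose from 19.1 ± 2.47 to 28.4 ± 1.50 RPKM (SD, n = 3; limma adjusted p = 0.00977), a level above that of any Toll-like receptor measured. Il1rl2, a receptor for IL-36, went from 2.86 ± 0.154 to 0.921 ± 0.281 RPKM (limma adjusted p = 0.00369).

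Genes that the pathway is known to induce gave 7 higher and 1 lower of 13 tested. Ptgs2, the inducible cyclooxygenase, had 1.81, 1.15 and 0.910 RPKM at PND2 and 13.3, 13.7 and 26.5 RPKM at 4 months (3.67, SE 0.34, limma adjusted p = 3.56e-04). Il1b rose by 3.55, Ccl5 by 2.87, Icam1 by 1.82, Nfkbiz by 1.80, Nos2 by 1.34 and Cxcl1 by 1.02. Ccl2 was lower by -1.09 (limma adjusted p = 0.0404). Tnf, Il6, Cxcl2, Cxcl10 and Lcn2 were not called, and Cxcl10 was at 9.25 RPKM in the third library of 4 months against 0.765 and 0.999 RPKM in the other two. Il12b, Ifnb1 and Saa3 did not reach the level needed for a test.

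Molecules of the tissue that are known to act on Toll-like receptors moved in both directions, with 3 higher and 5 lower of 10. The proteoglycans Bgn and Dcn, which can engage Tlr2 and Tlr4, rose by 1.42 and 1.90, Dcn from 1054 ± 60.0 to 3961 ± 506 RPKM (SD, n = 3). Hspa1a rose by 6.51 from 8.33 to 10.4 RPKM up to 601 to 1495 RPKM. The matrix genes Tnc, Vcan and Fn1 were lower by -2.73, -1.55 and -1.48. S100a8 and S100a9, the Tlr4 ligands of neutrophils, were lower by -3.88 and -6.72, beside the neutrophil markers that were also lower. S100a9 reached the minimum level for a test in at most 1 library of 4 months. It was thus tested through the libraries of PND2, and its call is no support for a fall.

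Over the 6 libraries, the genes whose log2 levels followed Tlr4 most closely were Cpne3, Foxo4, Cdkn2aip, Samd9l and Tmtc1, with Pearson's r between 0.998 and 0.999. For Myd88 they were Prss53, Tnxa, Unc93b1, Igfbp4 and 4933407E24Rik, with r between 0.996 and 0.998. These 6 points fall into 2 clusters by age and share libraries and depth, so the values are a description only.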

How the data were processed

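Per the labels and the study's methods, valve RNA was extracted with TRI reagent, made into stranded TruSeq libraries and sequenced as paired reads. The authors aligned reads to mm10 with TopHat2 2.1.0, used easyRNASeq to count those on each Ensembl gene and exon, and deposited RPKM values per gene and per exon, with R 3.2.2 among the tools named. Library totals were not given and were inferred by taking the smallest exon value above 0 in each library as a single read. They ran from 23810507 to 38994657. With these totals, 100% of gene values above 0 were whole reads within 0.01, and all read counts here rest on them. How reads that match several genes were counted is not given in the sources used here.

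Values were compared with limma 3.58.1 in R 4.3.3 (tables read by version 1.17.8 of data.table) on log2(RPKM + 0.1) using eBayes, with a variance trend, for features at 0.1 RPKM or more in 3 libraries, and p-values were 2-sided and adjusted by Benjamini-Hochberg over all features tested. Fold changes on this scale understate those of low genes. Single ratios were compared by exact permutation tests. Sequences came from RefSeq promoters and GENCODE M21 on mm10 (biopython 1.88, matplotlib 3.10.9, scipy 1.17.1, pandas 2.3.3 and numpy 2.4.6 in Python 3.11.15). A planned comparison of the member proteins was not run, and coding sequences were compared instead.

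Members and lists were chosen with earlier results of these data known. All members are named, genes of the lists may be, and so are the 5 genes most like Tlr4 and Myd88. The alternatives were pseudocounts of 1 and 0.01, no filter, 1 RPKM or more, no trend, the study's unequal-variance test with its floors, voom on recovered reads, median scaling, quantile normalization, a replicate block, summed macrophage markers as denominator and each library left out. Exons 3 to 6 as denominator and a macrophage covariate were added after seeing the data. In simulated data for PND2 against 4 months (25626 genes), limma found 99% of genes planted at a log2 change of 2 and 40% at 1. There voom found 100% and 81%, and the unequal-variance test found 0% of both. Only 200 well-covered genes were planted, at a fixed spread and without the study's floors. On the measured libraries the unequal-variance test called 1727 of 19971 genes higher and 2355 lower, so the simulated shares do not carry over to these data.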

Additional observations from a re-analysis of the deposited data

How the results depend on the processing

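Tlr2, Tlr3, Tlr4 and Tlr8 kept their direction and call in all 16 alternatives fitted to single genes, with log2 fold changes of 0.69 to 0.88, 0.94 to 1.20, 1.01 to 1.22 and 0.82 to 1.50. With the minimum of 1 RPKM, Tlr8 was kept through the libraries of 4 months alone, so that alternative is no support for its rise. Myd88 ranged from 0.40 to 0.56, with limma adjusted p-values of 0.00379 to 0.0608. Without 1 library at a time the members called higher numbered 4 to 6 and those lower 0 to 0, the pathway genes 24 to 29 and 9 to 11, and the member exons 1 to 11 and 0 to 1. Over all genes these fits called from 2634 of 25305 to 3467 of 25146 higher and from 3403 of 25130 to 5114 of 25146 lower. Over all exons they called from 13952 of 276922 to 20606 of 275936 higher and from 16457 of 275705 to 31183 of 275936 lower. Members higher and lower per macrophage marker level numbered 3 to 3 and 3 to 4, and 2 and 2 with summed markers as the denominator. For these counts the share over all genes was not computed. With voom 1 member was lower, and with the study's unequal-variance test 18 of 82 pathway genes were higher (22.0%) against 35 of 89 (39.3%), while the share over all genes was 8.65% against 14.7%. Tlr1 turned to 0.16 without the third library of 4 months and ran from -0.66 to 0.16 over the libraries left out. The relative level of Myd88 exon 2 ran from -0.13 to 0.14, and was 0.04, 0.01 and 0.14 without the second or the third PND2 library or the third of 4 months, with exact permutation p-values of 0.8, 1 and 0.4. The cause of these differences was not tested. Tlr9 was not tested at 1 RPKM or more.

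Same-numbered libraries did not deviate together (correlations of 0.0439, -0.0608 and -0.160), and the labels name no pairing between ages. With 3 libraries per age these correlations cannot exclude a batch shared by number. A fit with the replicate block called 5 members higher, against 3004 of 25903 genes. It called 3 member exons higher in place of 9, against 18171 of 282267 exons. A fit with the macrophage marker level as a covariate, chosen after seeing the data, called 0 members higher and had 0 members at an unadjusted p under 0.05 in limma. It called 32 of 25903 genes, and the covariate correlated with age at 0.940. Levels under 1 RPKM rest on few reads, down to 34 for Tlr9, and limit what can be detected.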
